A study of Mus musculus with 9 samples.

Results

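The 10 genes described here are the D-type cyclins Ccnd1, Ccnd2 and Ccnd3, cyclin E1 (Ccne1), the cyclin-dependent kinases Cdk4, Cdk6 and Cdk2, the kinase inhibitors Cdkn1b and Cdkn2c, and the retinoblastoma gene Rb1. They were chosen by symbol, 10 of the 38215 genes in the table, and each symbol matched 1 row. All 10 passed the filter on low counts, which 14944 genes passed. RNA was sequenced from bone marrow LSK cells (lineage-negative, Sca1-positive, Kit-positive), the fraction that holds haematopoietic stem cells and multipotent progenitors, sorted as positive for GFP and mCherry at the terminal time point. The mice were C57BL/6J, all received tamoxifen and all carried Jak2V617F, an activating mutation of the kinase Jak2 found in myeloproliferative neoplasms. The 5 mice called EV in their titles (mice 1 to 5) have Jak2V617F alone as their genotype, and the labels do not spell out EV. The other 4 mice (1, 2, 3 and 5) have the genotype Jak2V617F-sgZrsr2, described by the series as loss of Zrsr2, a factor that recognises the 3′ splice site of minor, U12-type introns. No group without Jak2V617F was analysed here. The ages of the mice, the promoter that drives any recombinase and the number of guides are not in the labels.

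In the G1 phase of the cell cycle, D-type cyclins bind Cdk4 or Cdk6 and phosphorylate Rb1, which releases E2F transcription factors from repression. E2F then raises cyclin E, and cyclin E with Cdk2 commits the cell to DNA replication. Cdkn2c (p18) blocks Cdk4 and Cdk6, and Cdkn1b (p27) blocks cyclin E with Cdk2. Both are known to restrain the cell cycle in haematopoietic stem or progenitor cells. Signals through Jak2 and Stat5 are known to raise D-type cyclins in blood cells.

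The libraries held 23238264 to 45585531 expected counts, and the 10 genes had from 551 counts (Ccne1) to 20793 counts (Cdk4) in a library. Levels are given as CPM (counts scaled to library size with TMM factors), always in the order of the mouse numbers, EV mice 1 to 5 and then sgZrsr2 mice 1, 2, 3 and 5. The EV libraries had 50.6 to 62.2 CPM of the targeted gene Zrsr2 and the sgZrsr2 libraries 31.7 to 44.4 CPM, so its RNA was lower but present in every sgZrsr2 library. The sorted fraction had its defining RNAs, with Kit at 247 to 632 CPM and Ly6a (Sca1) at 14.8 to 49.3 CPM, while Cd3e, Ly6g and Ms4a1, markers of T cells, neutrophils and B cells, stayed under 1 CPM in every library. EV mouse 5 and sgZrsr2 mice 3 and 5 stood apart in erythroid RNAs. The summed erythroid list (5 of 7 genes in the table, among them Car1 and Klf1) was at 51.5, 97.2 and 64.2 CPM in them and at 2.87 to 4.11 CPM in the other 6 libraries. Of the megakaryocyte list, Vwf (53.2, 91.1 and 85.3 CPM) and Pf4 (22.02, 27.9 and 37.4 CPM) were also highest in these 3 libraries, but the sum of its 8 genes, at 435, 558 and 637 CPM, was in EV mouse 5 within the 259 to 517 CPM of the others. Their summed mature neutrophil list was at 170, 201 and 26.0 CPM, against 9.60 to 54.7 CPM in the others. Fold changes of members that move with these 3 libraries are given with and without them. In such bulk RNA, a different share of cells and a different level per cell cannot be told apart. The labels tell the mice of a group apart only by number. The p-values set the difference between the groups against the spread between libraries within a group, taking the libraries as independent.

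Promoter sequences from RefSeq (GRCm38.p6) were found for 7 of the 10 genes: Ccnd3, Ccne1, Cdk4, Cdk6, Cdk2, Cdkn1b and Cdkn2c. Those of the 2 CDK genes on chromosome 10 are shown because their 250 bases before the start hold matches to binding motifs of known G1 regulators. Capitals mark the E-box CACGTG, the motif of Myc, in Cdk4 (chr10:127063285-127063534, plus strand) and the E2F motif in Cdk2 (chr10:128705052-128705301, minus strand), read 5′ to 3′ towards the gene.
Cdk4: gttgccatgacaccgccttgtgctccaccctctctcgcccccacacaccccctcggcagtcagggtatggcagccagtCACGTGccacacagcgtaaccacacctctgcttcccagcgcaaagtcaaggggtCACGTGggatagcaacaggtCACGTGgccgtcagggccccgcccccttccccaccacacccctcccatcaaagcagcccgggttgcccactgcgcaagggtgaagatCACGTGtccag
Cdk2: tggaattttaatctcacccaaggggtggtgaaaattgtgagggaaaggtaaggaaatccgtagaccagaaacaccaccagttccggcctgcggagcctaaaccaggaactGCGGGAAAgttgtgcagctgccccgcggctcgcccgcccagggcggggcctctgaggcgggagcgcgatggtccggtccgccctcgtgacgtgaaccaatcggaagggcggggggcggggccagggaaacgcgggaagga
The Cdk4 window holds 4 E-boxes. Of 32851 such windows over all genes, 6.02% hold at least 1 and 7 windows hold 4 or more. Cdk6 has 1 E-box, and the other 5 genes with an entry have none in these windows. E2F motifs were searched as TTTCCCGC, TTTGGCGC, TTTCGCGC and TTTGCCGC on both strands, which 1.86% of windows hold, and Cdk2 was the 1 member with a match. A search for TTCNNNGAA, the motif of Stat factors, found it in 7.02% of all windows and in none of those of the 7 genes. Ccnd1, Ccnd2 and Rb1 had no window to search. Also searched were GGGCGG and TGACGTCA, which 32.7% and 1.55% of all windows hold. GGGCGG was found for each of the 7 genes but Cdk6, and TGACGTCA for none of them. The motifs were chosen after these windows had been seen, and a match describes letters, not binding.

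Across the group comparison, no member passed the threshold of 0.05 on the adjusted p (edgeR, quasi-likelihood F), and none of the 14944 genes did (0%). At an unadjusted p under 0.05 stood 1 of the 10 members, Ccnd1, which was lower with sgZrsr2, against 6.85% of all genes tested (3.87% higher and 2.98% lower). In 0 of the 10 members were the groups apart in CPM, against 3.06% of all genes (1.75% higher and 1.32% lower). By sign, 5 members were lower with sgZrsr2 and 5 higher, with a median log2 fold change of -0.05 beside -0.01 over all genes tested. The 3 D-type cyclins, Ccne1 and Cdk4 stood on the lower side, and Cdk6, Cdk2, both inhibitors and Rb1 on the higher side. None of these directions, other than that of Ccnd1, had an interval that left out 0. Without EV mouse 5 and sgZrsr2 mice 3 and 5, Cdk6 (-0.10), Cdkn1b (-0.04) and Cdkn2c (-0.12) were also on the lower side. In that setting 2 of the 10 members were higher.

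**Figure D1:**
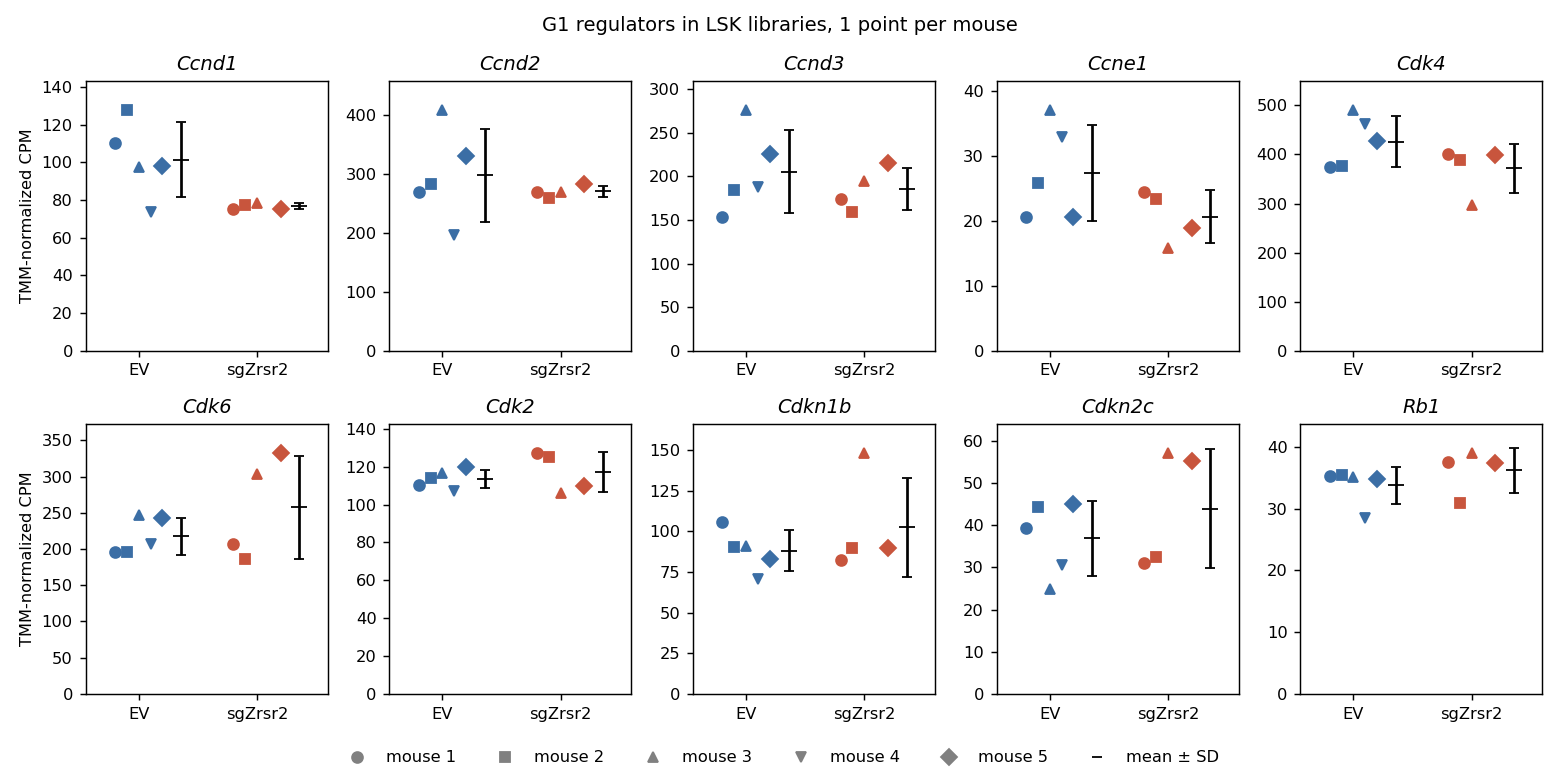
Levels of the 10 genes in TMM-normalized CPM (vertical axes, from 0), 1 point per mouse, blue for EV and red for sgZrsr2, with the mean and SD as bars; equal symbols mark equal mouse numbers and no shared animal. Ccnd1 lies at 75.2 to 78.4 CPM in the 4 sgZrsr2 libraries, and the groups overlap in every gene.

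Among the D-type cyclins, Ccnd1 (ENSMUSG00000070348; chromosome 7, 144929931 to 144939869, minus strand, GRCm38) had 110.3, 128, 97.3, 73.5 and 97.9 CPM in the EV libraries. The sgZrsr2 libraries had 75.2, 77.4, 78.4 and 75.3 CPM. The sgZrsr2 libraries were close to each other and below every EV library but that of mouse 4. The EV mean was 101 ± 19.9 CPM (SD, n = 5) and the sgZrsr2 mean 76.6 ± 1.6 CPM (SD, n = 4), so the level with sgZrsr2 was 75.6% of that with EV. The log2 fold change was -0.40 (SE 0.14, 95% interval -0.72 to -0.09), and edgeR gave an unadjusted p of 0.017 (0.714 adjusted). The two-sided exact permutation test of the CPM means gave p = 0.0794, where 126 splits of 5 and 4 libraries allow no less than 0.0159. Without EV mouse 5 and sgZrsr2 mice 3 and 5, the log2 fold change was -0.41, with an unadjusted edgeR p of 0.0846. EV mice 2 and 4 moved it most, to -0.31 without mouse 2 and to -0.50 without mouse 4, where the groups no longer overlapped. Without EV mouse 4 the groups were apart in 539 of the 14793 genes tested.

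Ccnd2 (ENSMUSG00000000184; chromosome 6, 127125779 to 127151048, minus strand), the D-type cyclin of many blood progenitors, had 269, 283, 408, 196 and 331 CPM in the EV libraries. In the sgZrsr2 libraries it had 269, 259, 269 and 283 CPM. All 4 sgZrsr2 values lay inside the EV range, which spanned from mouse 4 at the bottom to mouse 3 at the top. Between the groups this came to a log2 fold change of -0.14 (SE 0.18, 95% interval -0.53 to 0.25, edgeR adjusted p = 0.843), and to -0.0033 without EV mouse 3.

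Ccnd3 (ENSMUSG00000034165; chromosome 17, 47505051 to 47599683, plus strand), the third D-type cyclin, had 154, 184, 276, 188 and 226 CPM in the EV libraries and 174, 159, 194 and 215 CPM in the sgZrsr2 libraries. EV mouse 3 was again the highest, and the rest of the libraries were interleaved. Its log2 fold change was -0.15 (SE 0.17, 95% interval -0.52 to 0.23, edgeR adjusted p = 0.827), and -0.03 without EV mouse 3. Without EV mouse 5 and sgZrsr2 mice 3 and 5 the log2 fold change was -0.27. Ccnd3 overlaps the gene Bysl and has a pseudogene, and in 0 of 9 libraries was its expected count a whole number, so some of its reads were divided with other genes. Ccnd1, Ccnd2, Cdk4 and Cdk6 also overlap other annotated genes, Tspan31 in the case of Cdk4. Division of reads holds for Ccnd1 and Cdk4 as well, with 0 of 9 whole-number libraries each. Rb1 had whole-number counts in 6 of 9 libraries, and for these 4 genes the level is less certain.

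Divided by the length of their exons, the D-type cyclins made up a similar mix in both groups. Lengths are those of all exons joined in GENCODE M21 (4.71 kb for Ccnd1, 9.41 kb for Ccnd2, 8.78 kb for Ccnd3), so a gene that uses short transcripts reads too low. Ccnd2 had the largest share of the D-cyclin CPM per kb in 8 of 9 libraries on this scale, as 40.8 ± 3.69% with EV and 43.5 ± 1.04% with sgZrsr2 (SD). Ccnd1 held 33.7, 34.7, 21.6, 26.9 and 25.4% in the EV libraries and 24.8, 26.5, 24.7 and 22.6% in the sgZrsr2 libraries. EV mice 1 and 2 thus had the highest Ccnd1 shares, EV mouse 4 lay just above the sgZrsr2 libraries, EV mouse 5 among them and EV mouse 3 below them. The sum of the 3 genes was 76.6 ± 14.0 CPM per kb with EV and 66.1 ± 3.73 with sgZrsr2.

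Ccne1 (ENSMUSG00000002068; chromosome 7, 38097984 to 38107534, minus strand), the partner of Cdk2 at the end of G1, had 20.6, 25.8, 37.1, 32.9 and 20.6 CPM in the EV libraries. The sgZrsr2 libraries had 24.5, 23.5, 15.8 and 18.9 CPM. EV mice 3 and 4 were the highest, and the lowest were sgZrsr2 mice 3 and 5, both among the libraries with erythroid RNAs. With a log2 fold change of -0.41 (SE 0.22, 95% interval -0.88 to 0.07) it had the largest difference of the 10, at an unadjusted p of 0.0866 (edgeR, 0.714 adjusted). It was -0.27 without EV mouse 5 and sgZrsr2 mice 3 and 5, and the part of the erythroid RNAs in it was not tested. The related gene Ccne2 had 28.9, 31.8, 31.0, 34.6 and 27.4 CPM in the EV libraries and 33.3, 38.8, 16.6 and 19.6 CPM in the sgZrsr2 libraries, so it was also lowest in sgZrsr2 mice 3 and 5.

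Of the kinases, Cdk4 (ENSMUSG00000006728; chromosome 10, 127063534 to 127067920, plus strand) had 375, 376, 491, 462 and 428 CPM in the EV libraries and 402, 389.6, 298 and 399 CPM in the sgZrsr2 libraries. SgZrsr2 mouse 3 was below all other libraries, and the other 3 sgZrsr2 libraries lay within the EV range. Its log2 fold change was -0.20 (SE 0.13, 95% interval -0.48 to 0.09, edgeR adjusted p = 0.736), and -0.10 without sgZrsr2 mouse 3. Without EV mouse 5 and sgZrsr2 mice 3 and 5 the log2 fold change was also -0.10. Myc, whose motif the Cdk4 window holds 4 times, had 370.0 to 741 CPM in the EV libraries, highest in mouse 3 like Cdk4. In sgZrsr2 mouse 3, where Cdk4 was lowest, Myc was at 561 CPM, the highest of its group. A relation of Myc to the level of Cdk4 was not tested.

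Cdk6 (ENSMUSG00000040274; chromosome 5, 3343893 to 3523218, plus strand), the second kinase of the D-type cyclins, had 196, 196, 247, 207 and 243 CPM in the EV libraries. Its sgZrsr2 values were 207, 187, 303 and 332 CPM. The sgZrsr2 group thus split, with mice 3 and 5 above every EV library and mice 1 and 2 at the level of the lower EV libraries. The log2 fold change of 0.24 (SE 0.18, 95% interval -0.15 to 0.63, edgeR adjusted p = 0.747) was the second largest on the higher side. It turned to -0.10 without EV mouse 5 and sgZrsr2 mice 3 and 5, and was 0.09 without sgZrsr2 mouse 5. Car1, an early erythroid gene, was at 25.4, 39.3 and 35.5 CPM in those 3 libraries and at most 0.422 CPM in the other 6, and its part in the Cdk6 level was not tested.

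The balance of the kinases differed most in the same libraries. The log2 ratio of Cdk6 to Cdk4, which does not depend on the scaling, was -0.94, -0.94, -0.99, -1.16 and -0.81 in the EV libraries. It was -0.96 and -1.06 in sgZrsr2 mice 1 and 2, but 0.03 and -0.26 in sgZrsr2 mice 3 and 5. The 7 libraries other than these last 2 lay between -1.16 and -0.81, and EV mouse 5, which also had erythroid RNAs, was the highest of them. The part of the erythroid RNAs in this ratio was not tested. On the scale of CPM per kb, Cdk6 was 9.44 to 11.7% of Cdk4 plus Cdk6 in the EV libraries, 10.7 and 10.02% in sgZrsr2 mice 1 and 2, and 19.2 and 16.2% in sgZrsr2 mice 3 and 5.

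**Figure D2:**
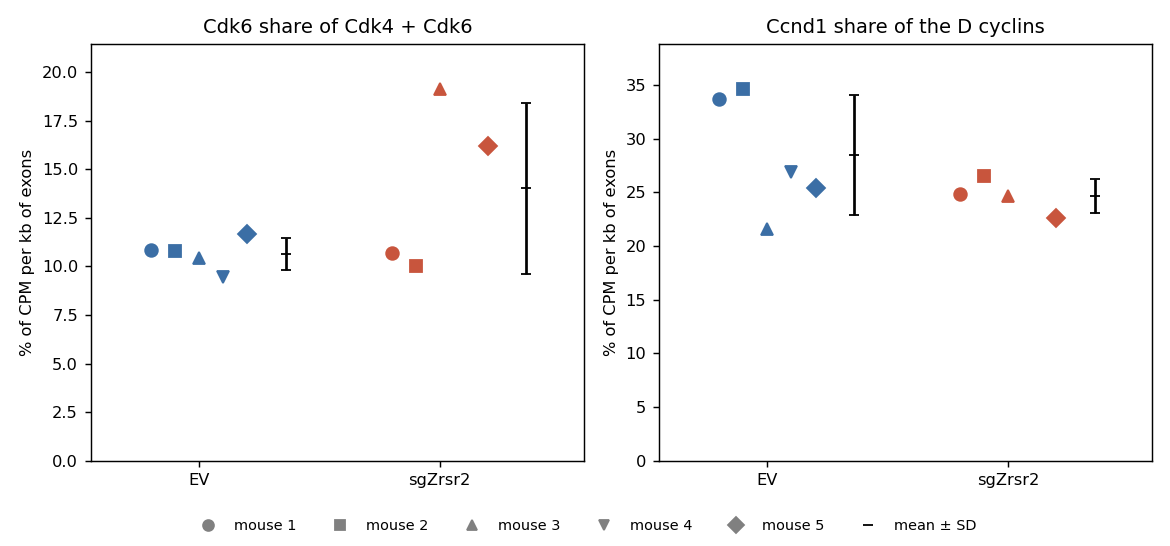
Cdk6 as a percentage of Cdk4 plus Cdk6 (left) and Ccnd1 as a percentage of the 3 D-type cyclins (right), in CPM per kb of exons, 1 point per mouse, with mean and SD as bars. In the left panel sgZrsr2 mice 3 and 5 stand at 19.2 and 16.2%, and the other libraries at 9.44 to 11.7%.

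Cdk2 (ENSMUSG00000025358; chromosome 10, 128697939 to 128705051, minus strand), the kinase of cyclin E, was the steadiest member. The EV libraries had 111, 114, 117, 107 and 119.7 CPM and the sgZrsr2 libraries 127, 125, 106 and 109.9 CPM. Its coefficient of variation over the 9 libraries was 6.58%, and 2.92% of the 7976 genes of mean level 20 CPM or more had a lower one. Its log2 fold change was 0.04 (SE 0.10, 95% interval -0.17 to 0.25, edgeR adjusted p = 0.911). SgZrsr2 mice 1 and 2 were above every EV library. Without EV mouse 5 and sgZrsr2 mice 3 and 5 the log2 fold change was 0.18. The groups then did not overlap, which held for 3556 of the 15323 genes tested in that setting. Cdk2 overlaps Pmel, and whether strand was used in counting is not stated.

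The inhibitor Cdkn1b (ENSMUSG00000003031; chromosome 6, 134920401 to 134925513, plus strand) had 106, 90.2, 90.9, 70.8 and 83.0 CPM in the EV libraries. The sgZrsr2 libraries had 82.7, 90.01, 148 and 89.5 CPM. SgZrsr2 mouse 3 stood alone, and the other 3 sgZrsr2 libraries lay inside the EV range. Its log2 fold change was 0.22 (SE 0.18, 95% interval -0.18 to 0.62, edgeR adjusted p = 0.765), and -0.01 without sgZrsr2 mouse 3.

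Cdkn2c (ENSMUSG00000028551; chromosome 4, 109660876 to 109667189, minus strand), the inhibitor of Cdk4 and Cdk6, had 39.4, 44.3, 24.97, 30.5 and 45.1 CPM in the EV libraries and 30.9, 32.4, 57.1 and 55.1 CPM in the sgZrsr2 libraries. Its 3 highest libraries were sgZrsr2 mice 3 and 5 and EV mouse 5, the same 3 that held the erythroid RNAs, though EV mouse 2 was only just below. The log2 fold change was 0.25 (SE 0.24, 95% interval -0.27 to 0.78, edgeR adjusted p = 0.799) and turned to -0.12 without those 3 libraries, and was 0.10 without sgZrsr2 mouse 3 alone. The part of the erythroid RNAs in this was not tested. Within a library, Cdkn1b exceeded Cdkn2c by a log2 ratio of 1.28 ± 0.38 with EV and 1.24 ± 0.36 with sgZrsr2 (SD of CPM ratios). These ratios are not divided by exon length, which was 4.55 kb for Cdkn1b and 2.69 kb for Cdkn2c. In CPM per kb, Cdkn1b was below Cdkn2c in sgZrsr2 mouse 5 (19.7 against 20.5) and above it in every other library.

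Rb1 (ENSMUSG00000022105; chromosome 14, 73183673 to 73325822, minus strand), the substrate of the D-type cyclin kinases, had 35.3, 35.5, 35.1, 28.5 and 34.8 CPM in the EV libraries and 37.5, 30.9, 39.0 and 37.4 CPM in the sgZrsr2 libraries. In 4 of the 5 EV libraries it was within 34.8 to 35.5 CPM, and 3 of the 4 sgZrsr2 libraries were above them. Between the groups the log2 fold change was 0.10 (SE 0.12, 95% interval -0.16 to 0.36, edgeR adjusted p = 0.831), and 0.04 without EV mouse 4. Without EV mouse 5 and sgZrsr2 mice 3 and 5 the log2 fold change was also 0.04. Other genes lie inside Rb1, Lpar6 among them, and without a stated strand their reads cannot all be told apart.

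**Figure D3:**
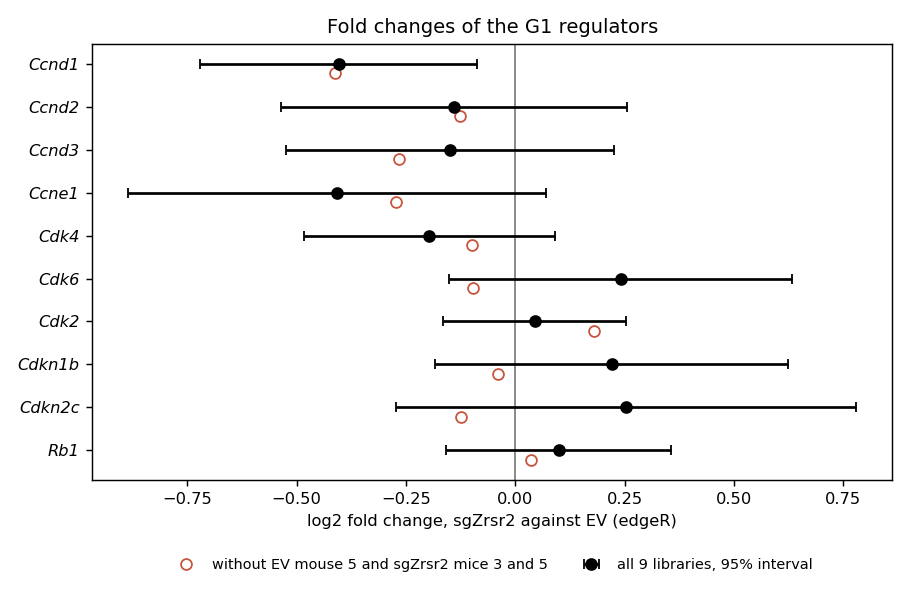
Log2 fold changes of the 10 genes, sgZrsr2 against EV, from edgeR over all 9 libraries with 95% intervals (black), and without EV mouse 5 and sgZrsr2 mice 3 and 5 (open red circles). The interval of Ccnd1, -0.72 to -0.09, is the 1 that does not reach 0, and Cdk6, Cdkn1b and Cdkn2c lie on the other side of 0 without the 3 libraries.

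Seen library by library, the third mouse of each group held the highest or lowest value of several members. EV mouse 3 had the highest Ccnd2, Ccnd3, Ccne1 and Cdk4 of the 9 libraries and the lowest Cdkn2c. SgZrsr2 mouse 3 had the lowest Ccne1, Cdk4 and Cdk2 and the highest Cdkn1b, Cdkn2c and Rb1. For Cdk2 this was 106 CPM, close to the 107 CPM of EV mouse 4. Cdk6 was above the EV mean in both, and Ccnd2 (269 CPM) and Ccnd3 (194 CPM) were at neither end in sgZrsr2 mouse 3. Of 8 proliferation markers, Pcna was likewise highest in EV mouse 3 (630.5 CPM) and lowest in sgZrsr2 mouse 3 (315 CPM), and Mcm2, Cdk1, Rrm2 and Tyms were also lowest in sgZrsr2 mouse 3. Mki67, Top2a and Ccnb1 were instead lowest in EV mouse 3, with Mki67 at 495 CPM there and 754 CPM in sgZrsr2 mouse 3. Between the groups 5 of the 8 were lower with sgZrsr2 and 3 higher, with a median log2 fold change of -0.14, and 0 of 8 stood at an unadjusted edgeR p under 0.05. Pcna had a log2 fold change of -0.29 (SE 0.15, edgeR adjusted p = 0.714) and Mki67 one of 0.06 (SE 0.18, edgeR adjusted p = 0.936). 

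**Figure D4:**
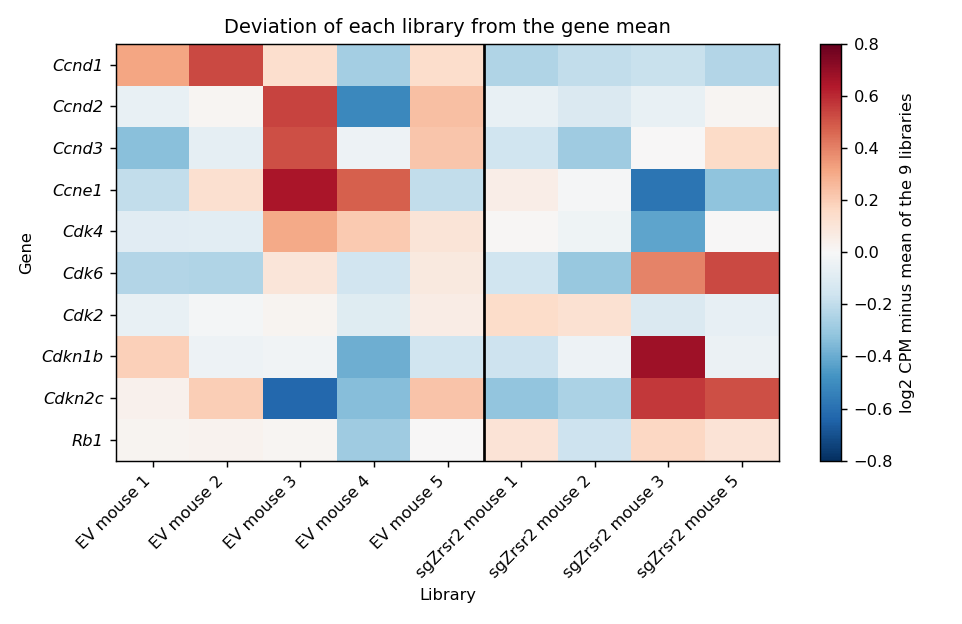
Log2 CPM of each gene (rows) in each library (columns) minus the gene's mean over the 9 libraries; red is above and blue below the mean, and the line parts EV from sgZrsr2. EV mouse 3 and sgZrsr2 mouse 3 have opposite colours in Ccne1, Cdk4 and Cdkn2c.

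The order of the levels over all 9 libraries, in CPM per kb of exons, was led by Cdk4 at 124 ± 17.1 (SD, n = 9), above every other member in every library. Ccnd2 followed at 30.3 ± 6.13, above Ccnd3 (22.4 ± 4.34) in 8 of 9 libraries. Cdkn1b (20.8 ± 4.86), Ccnd1 (19.2 ± 4.08), Cdk2 (18.5 ± 1.22), Cdk6 (16.8 ± 3.69) and Cdkn2c (14.9 ± 4.21) formed a middle tier of overlapping ranges. Ccne1 was at 9.17 ± 2.55 and Rb1 last at 5.80 ± 0.55, below Ccne1 in 8 of 9 libraries. From Ccnd2 down, neighbours in this order had overlapping ranges.

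For each member, the 1 gene was sought whose log2 CPM over the 9 libraries had the highest Pearson r with it. For Cdk4 this was Ung, the uracil-DNA glycosylase (r = 0.99), for Cdkn2c it was Cnnm3 (0.99), for Ccne1 it was 2310014L17Rik (0.99) and for Cdk2 it was Rif1 (0.98). The others were Cd44 for Ccnd2 (r = 0.95), Tcf3 for Ccnd3 (0.96), Zdhhc15 for Ccnd1 (0.96), Robo3 for Cdk6 (0.96), AC102860.1 for Cdkn1b (0.97) and Vdr for Rb1 (0.94). Each is the largest r among all other genes tested, over points that share libraries and scaling, so values this high describe a likeness in these 9 libraries and are not tested.

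The other genes of the G1 pathway were taken from a list of 36, of which 34 passed the filter. None passed an adjusted p of 0.05 in edgeR. At an unadjusted p under 0.05 stood 3 of the 34, 2 higher and 1 lower, against 6.85% of all genes tested, and by sign 17 were higher and 17 lower with a median log2 fold change of -0.01. Of the other kinase inhibitors, Cdkn1c (p57), which is known from quiescent stem cells, was low at 3.70 ± 0.95 (EV) and 4.09 ± 1.83 CPM (sgZrsr2). Cdkn1a (p21), a target of p53, had 53.5, 78.5, 338, 99.6 and 72.6 CPM in the EV libraries and 64.2 to 103 CPM in the sgZrsr2 libraries, so EV mouse 3 stood far above the rest. Its log2 fold change was -0.61 (SE 0.49, edgeR adjusted p = 0.759). Cdkn2a and Cdkn2b did not pass the filter and stayed under 1 CPM in every library.

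The 3 genes at an unadjusted p under 0.05 were Tfdp1, Tfdp2 and Rbl2. Tfdp1, the main DNA-binding partner of E2F factors, had 197, 208, 259.7, 255 and 242 CPM in the EV libraries and 166, 169.9, 149.9 and 217 CPM in the sgZrsr2 libraries. Mouse 5 was the sgZrsr2 library that reached into the EV range. It differed by -0.40 on the log2 scale (SE 0.14, unadjusted p = 0.0134, edgeR adjusted p = 0.714). Its relative Tfdp2 had 81.3, 73.6, 57.2, 53.5 and 70.9 CPM in the EV libraries and 107, 98.4, 88.3 and 78.8 CPM in the sgZrsr2 libraries, where EV mouse 1 and sgZrsr2 mouse 5 overlapped. Its log2 fold change was 0.47 (SE 0.14, unadjusted p = 0.00826, edgeR adjusted p = 0.714). Rbl2 (p130), the pocket protein of quiescent cells, had 82.0, 80.7, 45.5, 62.7 and 77.3 CPM in the EV libraries and 93.2, 95.3, 93.6 and 78.5 CPM in the sgZrsr2 libraries. SgZrsr2 mouse 5 lay below EV mice 1 and 2, so these groups overlapped too, with a log2 fold change of 0.37 (SE 0.17, unadjusted p = 0.0478, edgeR adjusted p = 0.714).

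**Figure D5:**
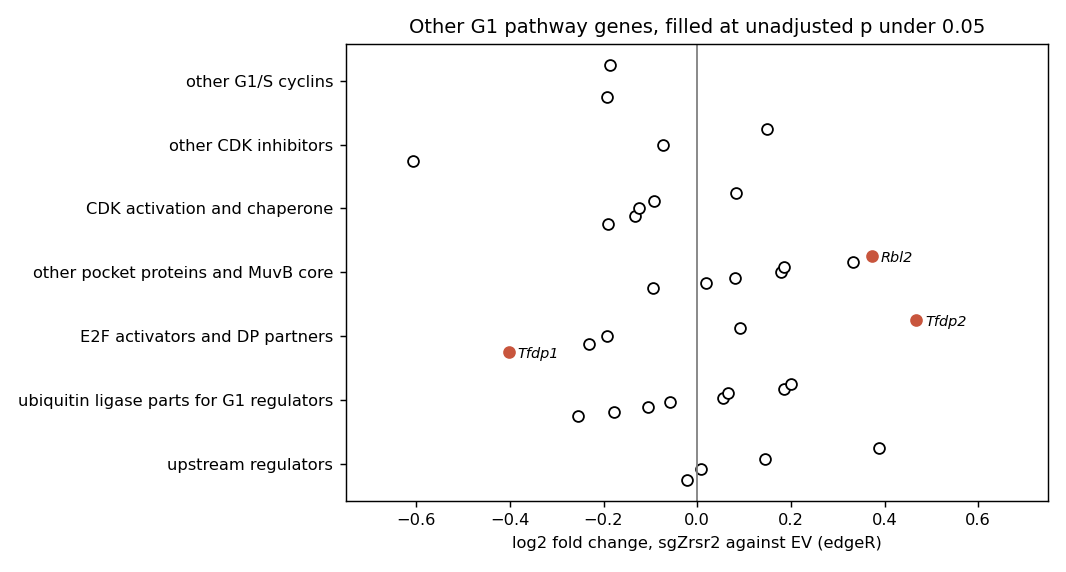
Log2 fold changes (horizontal axis, edgeR, sgZrsr2 against EV) of the 34 tested G1 pathway genes by list, 1 circle per gene, filled where the unadjusted p was under 0.05. Filled circles are Tfdp1 at -0.40, Tfdp2 at 0.47 and Rbl2 at 0.37, none of which passed the adjusted threshold.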

How the data were processed

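The authors deposited 1 table of expected counts from RSEM, not normalized, with 1 column for each of the 9 libraries. Per the submitters' processing notes, cutadapt 1.11, RSEM 1.2.30 and the build GRCm38 were used; the annotation release and strandedness are not given in the sources used here. Per the labels' protocols, 5 ng of RNA were poly(A)-selected and amplified by PCR. The intervals given for log2 fold changes come from the edgeR quasi-likelihood fit, so they rest on the spread between these libraries.

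Counts were rounded, filtered with filterByExpr (minimum count 10, minimum total 15; 99.93% of counts kept), scaled by TMM and tested with edgeR 4.0.16 (estimateDisp, glmQLFit, glmQLFTest, R 4.3.3) over 14944 genes with Benjamini-Hochberg adjustment. The standard error is the log2 fold change over the square root of F. Single genes were also compared by two-sided exact permutation of CPM means. The log2 CPM used for likeness had a prior count of 2. Alternatives used limma 3.58.1, DESeq2 1.42.0, other scalings and filters, and fewer libraries.

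The members, the pathway list, the marker lists and the choice of the 3 libraries left out together were made with earlier results of these data known. Named were all members, pathway genes at an unadjusted p under 0.05 with Cdkn1a, Cdkn1c, Ccne2 and Rbl2, Mki67, Car1, markers near 0 and the most alike gene of each member. Kit, Ly6a, Myc, Vwf, Pf4 and the proliferation markers other than Mki67 were named beyond this rule. A further gene of the erythroid list is not reported here and was left out of its sum.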

Additional observations from a re-analysis of the deposited data

Results flagged for a closer look

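Each of 21 measures (the 10 genes and 11 ratios, shares and sums of them) was searched, in each group, for a library that stood alone, and 4 of the 42 sets stood out where chance gives about 2.1. In sgZrsr2 mouse 3, Cdk4 was at 298 CPM, a gap to the next library of 0.884 of the range of its group. Cdkn1b was at 148 CPM in the same library, with a gap of 0.888 of the range. Rb1 was at 28.5 CPM in EV mouse 4, with a gap of 0.898 of the range. The log2 ratio of Cdkn1b to Cdkn2c was 0.70 in sgZrsr2 mouse 5, with a gap of 0.873 of the range. SgZrsr2 mouse 3 also had the highest summed erythroid list, at 97.2 CPM, and the highest summed mature neutrophil list, at 201 CPM against 9.60 to 170 CPM elsewhere; their part in the levels of Cdk4 and Cdkn1b was not tested.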

How the results depend on the processing

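No member passed the adjusted threshold in any of 210 refits, and 204 kept the direction. Those that reversed were Cdk6 (-0.096), Cdkn1b (-0.040) and Cdkn2c (-0.125) without EV mouse 5 and sgZrsr2 mice 3 and 5, Cdkn2c (-0.126) under limma-voom with sample quality weights, Cdk2 (-0.0040) without sgZrsr2 mouse 1 and Cdkn1b (-0.012) without sgZrsr2 mouse 3. Leaving out single libraries gave at most 0.088 for Cdk2 and 0.305 for Cdkn1b. Without the 3 libraries together, 1692 of 15323 genes, 5 of 34 in the pathway list and 0 of 10 members stood at an unadjusted p under 0.05. The groups were then apart in 3556 of the 15323 genes and in 1 member (Cdk2), where fewer libraries make this easier. The DESeq2 Wald test put 16 genes past the adjusted threshold, and 1 gene passed with sgZrsr2 mice 1 and 2 averaged; none was a member. Limma-voom with quality weights had 2551 genes at an unadjusted p under 0.05. Where not said, the cause was not tested.

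Leaving out 1 library gave 609 (without EV mouse 4) to 1292 genes at an unadjusted p under 0.05, 1 to 2 members (Ccne1 joined without EV mouse 1 or 5), and 530 to 1080 genes and 0 to 1 members with groups apart (Ccnd1 without EV mouse 4, Rb1 without sgZrsr2 mouse 2). With the mouse number as a replicate block, 341 genes stood at an unadjusted p under 0.05, Ccnd1 among them. The numbers do not show a pairing: same-numbered libraries correlated from -0.40 to 0.37, and 1 of 4 sgZrsr2 libraries correlated best with its own number. Ccnd1 ran from -0.58 to -0.31 over all refits (adjusted p 0.149 to 0.9998). Each member had 551 counts or more in every library, and the effect of depth was not tested. The libraries of sgZrsr2 mice 1 and 2 had the fewest, 23238264 and 25857723 expected counts against 32961362 to 45585531 in the others. Without EV mouse 5 and sgZrsr2 mice 3 and 5 they are the whole sgZrsr2 group, so depth and group cannot be told apart there.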
